A study of Mus musculus with 4 samples.

Results

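The Zic, Msx and Engrailed families were followed in transcriptomes of WT_CTCF and MUT_CTCF mESCs through 9 of the 37620 gene rows of the count table: Zic1, Zic2, Zic4, Zic5, Msx1, Msx2, Msx3, En1 and En2. They were picked by symbol, after Zic1, Msx3 and En1 had been seen to be higher in MUT_CTCF mESCs at low counts. The difference between the lines is therefore described for all 9 genes. Whether members were past the thresholds used for all genes is listed, but it is not read as a test. Both lines were made from mouse CTCF-EGFP-AID embryonic stem cells, whose tagged endogenous CTCF is degraded by auxin, and both carry a vector that replaces it. Per the paper, picked clones of both lines were kept in auxin for 2 days to remove the endogenous protein. The duration of auxin for the RNA-seq libraries is not stated in the sources used here. The vector encodes wild-type CTCF in WT_CTCF mESCs and, in MUT_CTCF mESCs, the O-GlcNAc-deficient form with the substitution T668A. Each line was grown from a picked clone with matched CTCF protein in serum and LIF, and 2 biological replicates per line gave 4 libraries. With 1 clone per line, an effect of the substitution and a difference between clones cannot be told apart. The comparison asks whether a deficiency of O-GlcNAc on CTCF changes gene expression.

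Zic genes encode zinc finger transcription factors of the neural plate, the dorsal neural tube and the cerebellum. Msx genes encode homeodomain repressors that respond to BMP signalling at the border of the neural plate, in neural crest and in limb and skull mesenchyme. En1 and En2 encode the Engrailed homeodomain repressors of the midbrain and hindbrain boundary. In pluripotent cells many genes of this kind have CpG-rich promoters held by Polycomb complexes and are hardly transcribed.

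The promoter sequences are shown for Zic1, Msx3 and En1, which were higher in MUT_CTCF mESCs, and for Zic4, the neighbour of Zic1 on the opposite strand, which was almost without reads. Each run holds 300 bases from 250 before to 50 after the start of the gene, taken from RefSeq on GRCm38.p6, on the strand of the gene. Capitals mark CpG dinucleotides. The windows are chr9:91365719-91366018 (minus strand) for Zic1, chr9:91368722-91369021 (plus strand) for Zic4, chr7:140049039-140049338 (minus strand) for Msx3 and chr1:120602237-120602536 (plus strand) for En1. The RefSeq start of Zic4 lies outside Zic1, whereas the GENCODE M1 gene used here for its place and exons starts inside Zic1. The Zic4 window thus belongs to another start than the first one of that annotation.
Zic1: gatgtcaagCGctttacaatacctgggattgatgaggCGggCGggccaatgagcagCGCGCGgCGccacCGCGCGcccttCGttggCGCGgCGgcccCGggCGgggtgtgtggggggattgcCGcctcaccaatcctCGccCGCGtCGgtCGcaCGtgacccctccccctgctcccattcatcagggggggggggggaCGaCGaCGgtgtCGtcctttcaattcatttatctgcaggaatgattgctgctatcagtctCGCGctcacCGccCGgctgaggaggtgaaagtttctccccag
Zic4: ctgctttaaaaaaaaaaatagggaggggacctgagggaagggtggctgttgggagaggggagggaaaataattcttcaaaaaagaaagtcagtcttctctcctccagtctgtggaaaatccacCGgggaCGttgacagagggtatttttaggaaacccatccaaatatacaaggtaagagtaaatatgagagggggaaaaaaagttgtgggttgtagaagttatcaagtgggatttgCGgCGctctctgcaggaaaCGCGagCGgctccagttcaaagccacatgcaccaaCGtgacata
Msx3: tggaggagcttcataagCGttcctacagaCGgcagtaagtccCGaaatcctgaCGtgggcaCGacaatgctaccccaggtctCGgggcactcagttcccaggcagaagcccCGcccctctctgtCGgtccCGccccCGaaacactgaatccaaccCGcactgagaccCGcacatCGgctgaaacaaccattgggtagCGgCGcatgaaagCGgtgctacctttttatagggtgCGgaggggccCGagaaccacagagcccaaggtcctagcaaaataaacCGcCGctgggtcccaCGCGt
En1: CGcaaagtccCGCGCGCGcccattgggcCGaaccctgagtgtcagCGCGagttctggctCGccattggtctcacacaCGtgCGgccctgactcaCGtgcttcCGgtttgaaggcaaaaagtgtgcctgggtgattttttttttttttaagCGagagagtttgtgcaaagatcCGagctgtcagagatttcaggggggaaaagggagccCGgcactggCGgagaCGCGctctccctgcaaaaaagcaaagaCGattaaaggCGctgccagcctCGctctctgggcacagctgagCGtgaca

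The Zic1 window holds 31 CpG dinucleotides, the En1 window 23, the Msx3 window 22 and the Zic4 window 8. The promoter table matched 7 of the 9 members, all but Zic2 and En2. All 7 lay above the median ratio of observed to expected CpG over 32851 promoters, which was 0.384. The ratios ran from 0.510 in Zic5 and 0.545 in Zic4 to 0.948 in En1 and 0.969 in Zic1. The 7 promoters thus share a CpG ratio above the median. They include genes with few reads (Zic1, Zic4, En1, Msx3 and Msx1) and with many (Msx2 and Zic5). The ratios of Zic5 and Zic4 were higher than those of only 58.7% and 60.8% of all promoters. The GC content was 46.0% in Zic4 and between 57.0% and 70.0% in the other 6, against a median of 52.7% over all promoters. The letters AGGNGGC, a core of the CTCF motif, were searched on both strands. They occur in the windows of Zic1, Zic5 and Msx1, 3 of 7, and in 29.4% of all promoters.

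Total counts per library ran from 40524694 to 40977464, and 16264 genes passed the filter on low counts. Ctcf was counted 18273 and 18625 times in WT_CTCF against 18954 and 19233 times in MUT_CTCF replicates, endogenous and vector transcripts together. The 10 pluripotent cell markers, among them Pou5f1, Nanog and Sox2, summed to between 270838 and 274105 normalized counts in every library, so the label of embryonic stem cells matched its markers. Of the markers of neural progenitors and neurons, 9 of 10 were analysed here. Dcx was at 0 in all 4 libraries, and without Tubb3 and Nes the other 7 summed to between 56.3 and 67.4 normalized counts. Primitive endoderm markers summed to 3628 and 3462 in WT_CTCF and 3457 and 3725 in MUT_CTCF mESCs. Those of feeder fibroblasts, with Lum at 0, summed to 1867 and 1924 in WT_CTCF and 1897 and 2123 in MUT_CTCF mESCs. Most of this sum came from Pdgfrb (931 to 1091 normalized counts) and Thy1 (597 to 748). Prrx1, Twist2, Dcn and Postn had at most 9 counts in any library. Per the paper, the cells were grown in dishes coated with gelatin. Markers of the trophectoderm summed to 6088 and 5739.5 in WT_CTCF and 5739.9 and 5658 in MUT_CTCF mESCs, and those of the primitive streak to 947.5 and 1004 against 936.8 and 888.2.

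All 9 members had at least 1 read, and 8 had enough counts to enter the fit. Levels per exon length, in CPM (counts scaled by library size) per kilobase of exon, put the members in the order Zic2, En2, Msx2, Zic5, Msx1, En1, Msx3, Zic1 and Zic4. Zic2 had a mean level of 11.7 ± 0.243 (SD over 4 libraries), higher than 69.9% of the tested genes. En2 had 6.90 ± 0.339 and Msx2 5.86 ± 0.935, and their ranges over the 4 libraries overlapped. Zic5 had 2.77 ± 0.154, below the median level of the tested genes, which was 3.92. Below it the level dropped to 0.433 ± 0.141 in Msx1, 0.240 ± 0.134 in En1, 0.0865 ± 0.0672 in Msx3 and 0.0354 ± 0.0288 in Zic1. From Msx1 to Zic1, the range of each gene over the 4 libraries overlapped that of the next in this order. From Zic2 to Msx3 the order held within each library, except that En1 (0.426) was above Msx1 (0.305) in MUT_CTCF replicate 2. Each family thus had 1 member with the highest level, Zic2, Msx2 or En2, and Zic5 was the other gene with a high count. Zic2 took between 77.0% and 79.5% of the Zic counts over the 4 libraries, Msx2 between 89.2% and 96.0% of the Msx counts and En2 between 95.5% and 98.7% of the Engrailed counts. The lowest shares of Msx2 and En2 were in MUT_CTCF libraries. With 2 Engrailed genes, a lower En2 share restates the higher En1, which was chosen for its difference, so nothing is read from it. The Msx2 shares were 96.0% and 93.52% in WT_CTCF against 89.2% and 93.46% in MUT_CTCF replicates 1 and 2. Msx3, also chosen for its difference, counts in the Msx sum. Summed over their members, the families gave 2628 and 2562 against 2525 and 2535 normalized counts (counts scaled to the mean library) for Zic, with both MUT_CTCF libraries lower, and 1416 and 1488 against 1345 and 1513 for Engrailed, with overlap. The Msx sum was 648.0 and 742.8 against 531.4 and 598.9, lower in both MUT_CTCF libraries.

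**Figure D1:**
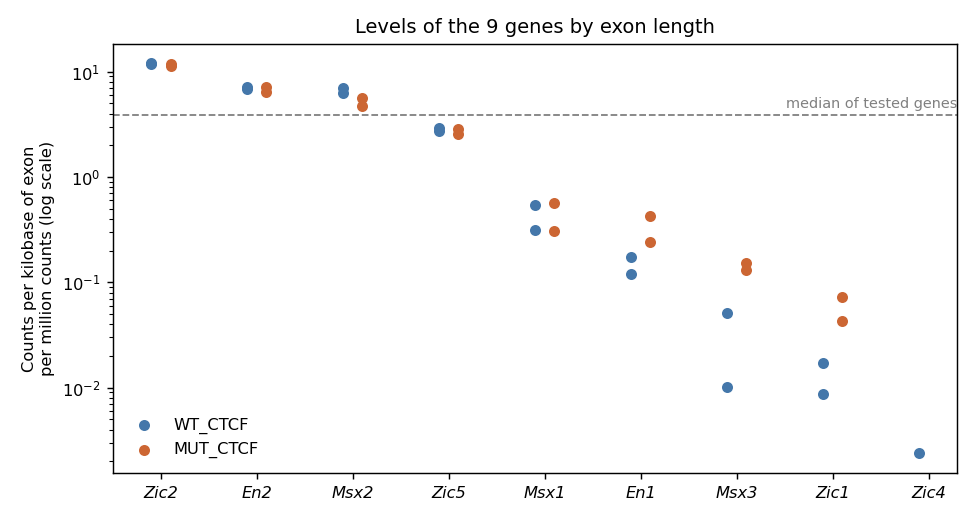
CPM per kilobase of exon (log axis) in each library, for the members in order of their mean level; the dashed line is the median of the tested genes, and values of 0 (3 of the 4 Zic4 libraries) are not drawn. Zic2, En2 and Msx2 lie above the line at 11.7, 6.90 and 5.86, and Msx1, En1, Msx3, Zic1 and Zic4 lie far below it.

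Of the Zic genes, Zic2 (ENSMUSG00000061524, chromosome 14 of mm9, 122874604 to 122879074, plus strand), whose loss causes failures of forebrain division and neural tube closure, had the most reads. Its reads numbered 2039 and 2004 in WT_CTCF replicates 1 and 2, against 1961 and 2005 in MUT_CTCF. Zic5 (ENSMUSG00000041703, 122856017 to 122864899, minus strand) lies head to head with Zic2, with 9.705 kb between the starts. Its reads numbered 582 and 548 in WT_CTCF, against 569 and 508 in MUT_CTCF. The lines overlapped for both genes of this pair. The log2 fold change of MUT_CTCF over WT_CTCF was -0.033 (standard error, SE, 0.062) for Zic2 and -0.075 (SE 0.112) for Zic5.

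The second pair lies on chromosome 9 and had few reads. Zic1 (ENSMUSG00000032368, 91252896 to 91260648, minus strand), a gene of the dorsal neural tube and cerebellum, was counted 2 and 4 times in WT_CTCF against 17 and 10 times in MUT_CTCF replicates. The replicates of the lines did not overlap, and MUT_CTCF was higher in both. The summed 6 and 27 counts, scaled for library size, gave a ratio of 4.48 with a 95% counting interval from 1.81 to 13.3 (exact binomial). This interval, like every counting interval and limit given here, covers counting error only. The intervals of Zic1, Msx3 and En1 are no test of a difference, because these genes were chosen for it. The fitted log2 fold change was 2.12 (SE 0.947). It was 1.72 or 2.67 when WT_CTCF replicate 1 or 2 was left out, and 1.70 or 2.44 when MUT_CTCF replicate 1 or 2 was. Zic4 (ENSMUSG00000036972, 91257251 to 91284186, plus strand), which acts with Zic1 in the cerebellum, had 1 count in 1 WT_CTCF library and 0 in the other 3. A count of 0 allows up to 3 counts, or at most 0.0740 CPM in any of the libraries. A difference in Zic4 below this limit was therefore not detectable at this depth. Zic1 and Zic4 share 60 bases of exon on opposite strands, and the sources used here do not state the strand of the counting.

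Among the Msx genes, Msx2 (ENSMUSG00000021469, chromosome 13, 53562250 to 53568443, minus strand), which acts in skull, tooth and skin appendage formation, was the main transcript. Its reads numbered 621 and 693 in WT_CTCF replicates 1 and 2, against 478 and 557 in MUT_CTCF. Here the MUT_CTCF libraries lay below the WT_CTCF libraries, with 516.8 ± 60.7 against 658.3 ± 51.4 normalized counts (SD, n = 2). The log2 fold change was -0.35 (SE 0.111), with a range of -0.48 to -0.23 when each library in turn was left out. Msx1 (ENSMUSG00000048450, chromosome 5, 38211724 to 38215822, minus strand), a gene of palate and tooth development, was counted 25 and 43 times in WT_CTCF against 45 and 24 times in MUT_CTCF replicates. Its replicates differed more from each other than the lines did, with a log2 fold change of 0.013 (SE 0.493). It was -0.32 or 0.46 when WT_CTCF replicate 1 or 2 was left out, and -0.50 or 0.39 when MUT_CTCF replicate 1 or 2 was.

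Msx3 (ENSMUSG00000025469, chromosome 7, 147232056 to 147235039, minus strand) is a gene of the dorsal neural tube. Its reads numbered 1 and 5 in WT_CTCF replicates 1 and 2, against 13 and 15 in MUT_CTCF, without overlap. The summed 6 and 28 counts gave a ratio of 4.65 with a 95% counting interval from 1.89 to 13.7. The log2 fold change was 2.17 (SE 0.947), or 3.65 without WT_CTCF replicate 2 and 1.46 without WT_CTCF replicate 1.

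En2 (ENSMUSG00000039095, chromosome 5, 28492236 to 28500152, plus strand), which patterns the cerebellum, was counted 1395 and 1456 times in WT_CTCF against 1318 and 1438 times in MUT_CTCF replicates. The lines overlapped, with a log2 fold change of -0.054 (SE 0.074), which was 0.016 without MUT_CTCF replicate 1. En1 (ENSMUSG00000058665, chromosome 1, 122498995 to 122505873, plus strand), needed for the midbrain and for dorsal and ventral limb pattern, was counted 19 and 28 times in WT_CTCF against 39 and 68 times in MUT_CTCF replicates. Every MUT_CTCF value exceeded every WT_CTCF value, and the MUT_CTCF replicates were further apart than the WT_CTCF replicates. The summed 47 and 107 counts gave a ratio of 2.27 with a 95% counting interval from 1.59 to 3.27. The log2 fold change was 1.18 (SE 0.468). It was 0.93 or 1.48 when WT_CTCF replicate 1 or 2 was left out, and 1.53 or 0.71 when MUT_CTCF replicate 1 or 2 was.

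**Figure D2:**
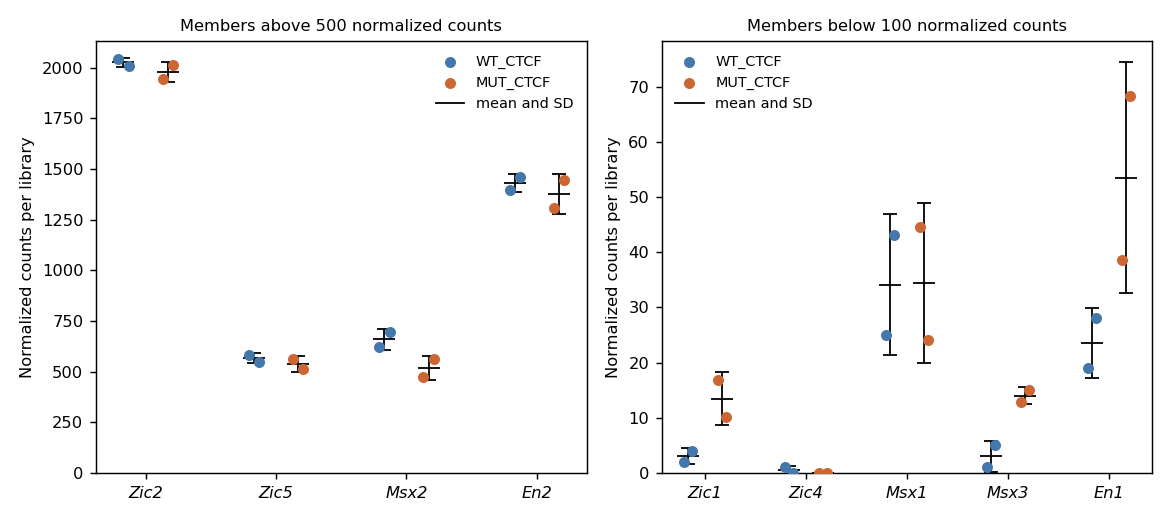
Normalized counts of each member in the 2 WT_CTCF and the 2 MUT_CTCF libraries (points), with the mean and SD of each line (bars), for the 4 members above 500 normalized counts (left) and the 5 below 100 (right, on another scale). Zic1, Msx3 and En1 are higher in both MUT_CTCF libraries and Msx2 is lower, while Zic2, Zic5, Msx1 and En2 overlap.

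Zic1, Msx3 and En1 were past the threshold used in the study (fold change over 2, unadjusted p below 0.05) in the higher direction, where 0.947% of the tested genes were, and no member was past it in the lower direction, where 0.357% were. In either direction 1.3% of the tested genes were past it. With edgeR's adjusted p below 0.05 there was 1.56% of the tested genes in the higher and 1.61% in the lower direction, 3.17% in all. No member was among them (0 of 8, and 0 in DESeq2, which gave 4 of the 8 no adjusted p), while 4 had an unadjusted p below 0.05, as 15.3% of the tested genes had. Zic1 lost its call in DESeq2 and without WT_CTCF replicate 1 or MUT_CTCF replicate 1. Msx3 lost it in DESeq2, with no filter on counts and without WT_CTCF replicate 1 or either MUT_CTCF replicate, and En1 without WT_CTCF replicate 1 or MUT_CTCF replicate 2. Of the 4672 tested genes with a mean below 100 normalized counts, 3.06% were past the same threshold in the higher direction. Zic1 and Msx3 passed the filter on low counts through the MUT_CTCF libraries, since their WT_CTCF libraries had at most 5 counts, so they had to differ to be in the fit. Nothing is read from these counts, because the 3 genes were chosen for this difference. The MUT_CTCF libraries lay above the WT_CTCF libraries without overlap in 3 of the 8 members in the fit, against 22.3% of all tested genes, and below them in 1, against 22.4%. The 8 log2 fold changes were positive in 4 and negative in 4, with a median of -0.010 beside 0.0034 over all tested genes. The members with high counts had small standard errors, and the median standard error was 0.062 for tested genes with at least 500 normalized counts and 0.545 for those below 100. In bulk RNA, more cells that transcribe a gene and more transcripts per cell cannot be told apart. The marker sums of primitive endoderm, trophectoderm and fibroblasts overlapped between the lines, those of trophectoderm barely, and those of pluripotent cells and of the primitive streak were lower in both MUT_CTCF libraries. The whole neural list was also lower in MUT_CTCF mESCs, at 14765 and 15068 against 16376 and 16400 normalized counts, most of them from Tubb3, and without Tubb3 and Nes it overlapped. Without the most abundant marker of each type, a choice made after the values were seen, primitive endoderm summed to 616.0 and 639.5 in WT_CTCF against 662.2 and 844.0 in MUT_CTCF mESCs (without Col4a1). Fibroblasts summed to 891.4 and 915.2 against 966.6 and 1032 (without Pdgfrb), and trophectoderm to 2333 and 2153 against 1852 and 1940 (without Tfap2c). The primitive streak then overlapped, and the neural list without Tubb3 alone was higher, at 2651 and 2626 against 2808 and 2861. Cdx2 fell from 274 and 298 to 133 and 159 reads (log2 fold change -0.97, adjusted p = 0.00023, edgeR) and Krt8 from 1102 and 1089 to 878 and 905 (-0.30, adjusted p = 0.0319). Gata6 had 57 and 50 against 99 and 108 reads (0.95, adjusted p = 0.0733) and Sox17 had 57 and 46 against 66 and 108 (0.75, adjusted p = 0.259), and neither passed. These 4 were picked after their values were seen, and other tested markers of their lists went the other way. Dab2 (-0.21) and Col4a1 (-0.040) fell, and Krt18 (0.086), Hand1 (0.12) and Tfap2c (0.051) rose, none with an adjusted p under 0.05. Gata4 and Pdgfra rose and Eomes, Elf5 and Gata3 fell, also without it. The other markers past it in edgeR were Tubb3 (-0.19, adjusted p = 5.0e-05), Dppa5a (-0.099, adjusted p = 0.0157) and Sox2 (0.095, adjusted p = 0.0358). The part of these markers in the members' values was not tested.

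**Figure D3:**
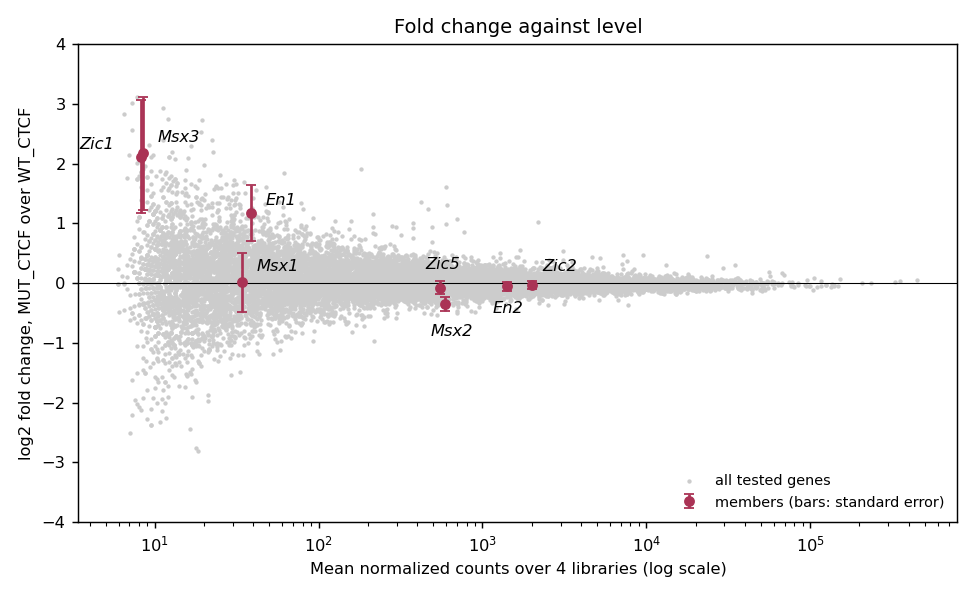
Log2 fold change of MUT_CTCF over WT_CTCF against the mean normalized counts over 4 libraries (log axis) for all tested genes (grey) and for the 8 members in the fit (red, with standard errors). Zic1, Msx3 and En1 at 2.12, 2.17 and 1.18 lie at low counts, where the grey points spread widely, and Zic2, Zic5, En2 and Msx2 lie between -0.35 and -0.033 at high counts; 3 grey points fall outside the axis.

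The nearest tested genes around the members, with starts up to 884.247 kb away, were higher in MUT_CTCF mESCs in 7 cases and lower in 8. The nearest tested gene on each side of every member made 15 genes besides the members, with log2 fold changes from -0.17 to 0.54 and a median of -0.0046. In edgeR 1 of the 15 had an adjusted p below 0.05, beside 3.17% of all tested genes. The lincRNA 2610035F20Rik, which lies between Zic5 and Zic2 and starts 1.803 kb from the start of Zic2, had a log2 fold change of -0.17 (SE 0.221, adjusted p = 0.801). Zfp511, which starts 12.749 kb from Msx3, had 0.0045 (SE 0.094, adjusted p = 0.988). Gm5620 and Plscr1, on both sides of Zic1 and Zic4, start 268.662 kb and 884.247 kb from Zic1. They had -0.069 (adjusted p = 0.854) and 0.014 (adjusted p = 0.953). C1ql2 and Insig2, on both sides of En1, start 261.836 kb and 730.171 kb from it. They had 0.54 (SE 0.738, adjusted p = 0.813) and 0.0027 (adjusted p = 0.993). Insig1, a sensor of sterols in the endoplasmic reticulum that starts 94.284 kb from En2, rose by 0.19 in log2 units (SE 0.050, adjusted p = 0.0190, edgeR). It was the 1 gene of the 15 with an adjusted p under 0.05, and it lost its call with no filter on counts (adjusted p = 0.297), in DESeq2 (adjusted p = 0.0543), or without WT_CTCF replicate 2 (adjusted p = 0.290), MUT_CTCF replicate 1 (adjusted p = 0.334) or MUT_CTCF replicate 2 (adjusted p = 0.482).

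The relatives of the 3 families outside the members included the Gli and Glis zinc finger genes and the Dlx, Gbx and Barx homeobox genes. Of 17 relatives, 15 were tested and 0 had an adjusted p below 0.05 in edgeR, with 2 at an unadjusted p below 0.05 and 0 in DESeq2, which gave 8 of them no adjusted p. None was past the threshold of the study, and the median log2 difference was -0.028, with 7 higher and 8 lower. Of all tested genes, 3.17% had an adjusted p and 15.3% an unadjusted p below 0.05 in edgeR. Dlx3, a homeobox gene of epidermis and placenta, was counted 119 and 151 times in WT_CTCF against 200 and 188 times in MUT_CTCF replicates, with a log2 fold change of 0.52 (SE 0.202, adjusted p = 0.173, edgeR). Gli2, an effector of Hedgehog signalling, had a log2 fold change of 0.073 (SE 0.038, adjusted p = 0.368).

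Of 21 genes of the neural plate border and dorsal neural tube, the domain of Zic1 and Msx3, 12 were tested. In edgeR 0 had an adjusted p below 0.05 and 0 an unadjusted p below 0.05, and DESeq2 called 0 and gave 10 no adjusted p. Their median log2 difference was 0.11, with 8 higher and 4 lower. The smallest p belonged to Lmx1a, a roof plate factor, with a log2 fold change of -0.41 (SE 0.249, adjusted p = 0.458). Twist1, a factor of neural crest and mesenchyme, had 0.45 (SE 0.320, adjusted p = 0.555), and Foxd3, a factor of neural crest and of pluripotent cells, had -0.075 (SE 0.058, adjusted p = 0.600). The sign of Foxd3 changed without MUT_CTCF replicate 1 (0.048).

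Of 20 genes of the midbrain and hindbrain boundary, the domain of En1 and En2, 18 were tested (Gbx2 also counts among the relatives and Wnt1 among the border genes), with 9 higher and 9 lower and a median log2 fold change of 0.032. In edgeR 2 had an adjusted p and 5 an unadjusted p below 0.05, beside 3.17% and 15.3% of all tested genes. DESeq2 called 1 and gave 11 no adjusted p. Spry2, a feedback inhibitor of FGF signalling, went from 2314 and 2496 reads in WT_CTCF to 2023 and 2062 in MUT_CTCF replicates. It fell by 0.24 in log2 units (SE 0.061, adjusted p = 0.0130, edgeR). Il17rd, another membrane inhibitor of FGF signalling, went from 2561 and 2795 to 2407 and 2247 counts and fell by 0.21 (SE 0.058, adjusted p = 0.0310, edgeR). Both genes act in FGF feedback in many tissues besides the boundary. Spry2 lost its call with no filter on counts (adjusted p = 0.241), without WT_CTCF replicate 2 (adjusted p = 0.257), MUT_CTCF replicate 1 (adjusted p = 0.419) or MUT_CTCF replicate 2 (adjusted p = 0.363). Il17rd lost its call with no filter on counts (adjusted p = 0.328), in DESeq2 (adjusted p = 0.0843), with library size only (adjusted p = 0.0588), or without WT_CTCF replicate 2 (adjusted p = 0.423), MUT_CTCF replicate 1 (adjusted p = 0.395) or MUT_CTCF replicate 2 (adjusted p = 0.492).

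Of 23 ligands, receptors, SMADs, targets and inhibitors of BMP signalling, which induces Msx genes, 20 were tested. In edgeR 0 had an adjusted p below 0.05, with 5 at an unadjusted p below 0.05, and DESeq2 called 0 and gave 7 no adjusted p. The median log2 difference was 0.033, with 11 higher and 9 lower. Among all tested genes, 3.17% had an adjusted p and 15.3% an unadjusted p below 0.05 in edgeR. Id3, a direct BMP target that inhibits basic helix-loop-helix factors, was counted 976 and 977 times in WT_CTCF against 806 and 809 times in MUT_CTCF replicates. Its log2 fold change was -0.28 (SE 0.089, adjusted p = 0.0703, edgeR). Smad1, a transducer of BMP signals, had 0.23 (SE 0.078, adjusted p = 0.106), and Smad7, an inhibitor of the pathway, had -0.11 (SE 0.042, adjusted p = 0.186).

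Of 14 cofactors of these proteins, among them the Groucho/TLE corepressors that Engrailed and Msx proteins bind and the PBX partners of Engrailed, all 14 were tested, with 11 higher and 3 lower and a median log2 fold change of 0.10. In edgeR 1 had an adjusted p and 2 an unadjusted p below 0.05, beside 3.17% and 15.3% of all tested genes. Tle3, a Groucho corepressor, went from 6276 and 6202 reads in WT_CTCF to 6883 and 6980 in MUT_CTCF replicates. It rose by 0.15 in log2 units (SE 0.039, adjusted p = 0.0204, edgeR). It lost its call with no filter on counts (adjusted p = 0.230), or without WT_CTCF replicate 1 (adjusted p = 0.131), WT_CTCF replicate 2 (adjusted p = 0.185), MUT_CTCF replicate 1 (adjusted p = 0.311) or MUT_CTCF replicate 2 (adjusted p = 0.384). The remaining 13 cofactors had no adjusted p under 0.05.

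**Figure D4:**
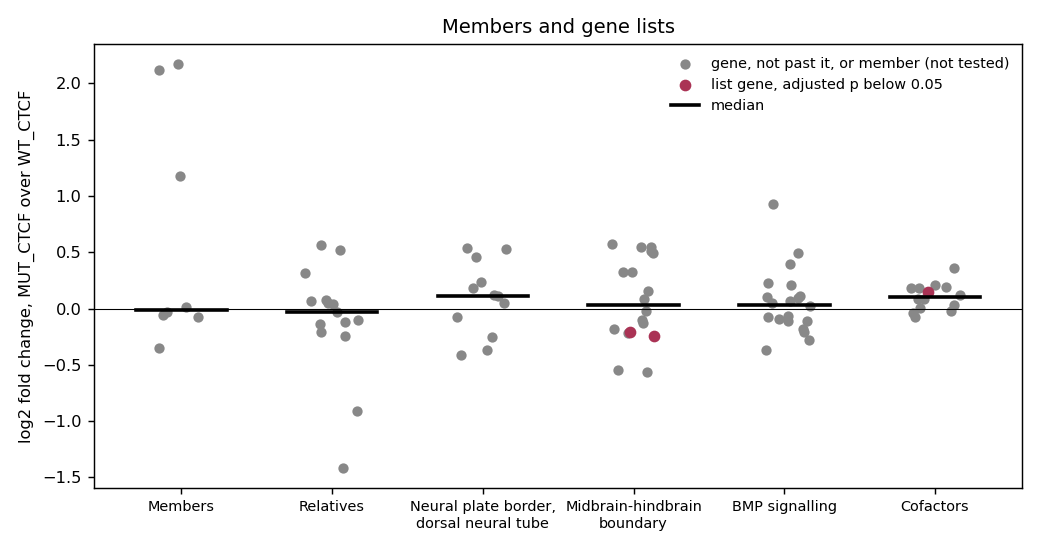
Log2 fold changes of MUT_CTCF over WT_CTCF for the 8 members in the fit and for the tested genes of each list (points, spread sideways for sight), with the median of each (bar) and the list genes with an adjusted p under 0.05 in red. The medians lie between -0.028 and 0.11, and the 3 red points are Spry2, Il17rd and Tle3.

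For the most abundant member of each family, the listed genes with the most similar profile were found by the root mean square difference in log2 CPM over the 4 libraries, among 78 tested genes of the 5 lists. For Zic2 these were Glis2 (0.042), Smad5 (0.117) and Pbx2 (0.132). For Msx2 they were Id1 (0.136), Bmp7 (0.239) and Tle6 (0.301), and for En2 they included Smad1 (0.211) and Bmpr1a (0.232). The measure reads the CPM of a gene without its length, so it depends on the number of reads. Id1, the closest to Msx2, had 597.0 and 577.4 normalized counts in WT_CTCF and 470.9 and 561.7 in MUT_CTCF mESCs (adjusted p = 0.467, edgeR).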

How the data were processed

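RNA-seq of 2 WT_CTCF and 2 MUT_CTCF libraries was analysed. Per the labels and methods, the authors trimmed reads (Trim Galore 0.4.4), used STAR for alignment to mm9 and HTSeq 0.9.1 for counting, and deposited raw counts of uniquely mapped reads per Ensembl gene. The strand setting is not given in the sources used here. The authors' own edgeR table (log2 fold changes, average expression, p-values, false discovery rates) was not used.

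Genes were named from GENCODE M1 (mm9), which named 37205 of 37620 rows. Genes were kept by filterByExpr (minimum count 10), scaled by TMM and tested with edgeR 4.0.16 in R 4.3.3 (glmQLFit, glmQLFTest, condition only), with Benjamini-Hochberg adjustment over 16264 genes. A standard error is the log2 fold change divided by the root of F. The fit was tested on simulated data. With 1 clone per line, p-values measure the spread between these libraries. Exon length is the union of annotated exons. Members, gene lists and markers were chosen with earlier results of these data known. Named were all members, list genes past a threshold or otherwise the 3 with the smallest p, the nearest tested genes and the 3 most similar profiles, except 1 listed gene that is not reported here. Alternatives were DESeq2 1.42.0, its size factors, library size only, 2 filters, a fit with replicate block, and fits without each library. Id1, Gata6, Sox17, Cdx2 and Krt8 are shown by their values after these were seen.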

Additional observations from a re-analysis of the deposited data

How the results depend on the processing

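With 2 libraries per line, low counts limit Zic1, Msx3, En1 and Msx1 most. Zic1, Msx3 and En1 stayed positive and Msx2 negative in every alternative that gave a value. The libraries of these genes did not overlap between the lines, so leaving 1 library out could not change the sign. Zic1 and Msx3 have none with at least 10 counts in every library. Criterion calls, 154 higher and 58 lower, were 96 and 30 in DESeq2, 82 and 35 with at least 10 counts in every library, and 100 to 208 and 48 to 95 with 1 library left out. Calls at an adjusted p under 0.05, 253 higher and 262 lower, were 141 and 161 in DESeq2, 26 and 3 without a filter, and 6 to 142 and 0 to 102 with 1 library left out, and lower calls were 152 with library size only. The lowest adjusted counts, 6 and 0, came without either MUT_CTCF replicate, and without WT_CTCF replicate 1 or 2 they were 133 and 66 or 142 and 102. A fit with 1 library left out assumes that the lone library varies like the other line. The cause was not tested. The 2 called boundary genes were 1 in DESeq2, 1 with library size only and 0 without a filter, and 0 to 2 with 1 library left out. The 1 called cofactor was 0 without a filter and 0 to 0 with 1 library left out. With the replicate block, calls at an adjusted p under 0.05 were 326 higher and 372 lower, and 1 BMP gene, Id3 (adjusted p = 0.0438), was called instead of 0. Replicate numbers did not pair the samples (r = -0.019 across 16264 genes between the replicate differences of the lines). With 1 library left out, list medians ran from -0.10 to 0.066 for relatives, -0.031 to 0.11 for border genes, -0.050 to 0.10 for boundary genes, -0.024 to 0.053 for BMP genes and 0.062 to 0.13 for cofactors. Foxd3 ran from -0.21 to 0.048.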
